A study of Mus musculus with 6 samples.

Results

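The set of muscle and smooth muscle contractile genes described here holds 37 of the 26852 genes in the deposited table, all of which were present and gave reads. They were taken from a list of symbols and grouped by the kind of cell in which the protein is best known: 23 genes of striated muscle, 7 of smooth muscle and 7 that are made by nonmuscle cells or shared between cell types. Midbrains of C57Bl/6 mouse embryos were dissected at E14.5 and their RNA was sequenced. The Lmx1b cKO embryos were Lmx1b fl/fl;Pitx3-Cre and the control embryos were Lmx1b wt/wt;Pitx3-Cre, so both genotypes carried the Cre driver. Each group consisted of 3 libraries, each of 2 pooled embryos, and the embryos came from 4 litters. Cre is driven from the Pitx3 locus, so the deletion is limited to cells that express Pitx3, the dopaminergic neurons of the midbrain, while the dissection takes in every cell type of the tissue. None of the contractile genes is therefore read from the deleted cells alone.

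The table holds group means of normalized read counts, from which whole reads per library were recovered. The libraries are called cKO a, b and c and control a, b and c here, names that cannot be tied to single samples. They held 24119238 to 29232846 recovered reads. A normalized count is the number of reads divided by the size factor of the library, and 3 reads were worth 2.65 to 3.25 normalized counts. The targeted gene itself, Lmx1b (chr2:33560965-33640511, GRCm38), was at 1257, 1401 and 1455 normalized counts in cKO a, b and c and at 1368, 1352 and 1474 in control a, b and c. The levels overlapped, and the log2 fold change was -0.03 ± 0.07 (SE). The targeted gene was thus not measurably lower in the libraries labelled cKO, and this count, taken over all exons of the gene, gave no check of the labels. Of 8 midbrain markers, all were measured in every library, and En1, En2 and Pitx3 were lower in the cKO at an unadjusted limma p-value under 0.05, as were 1.62% of all tested genes, each with an adjusted p-value of 0.9999. With 1 library left out at a time, En1 and En2 stayed under 0.05 in each of the 6 fits, Pitx3 in only 2.

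Contraction rests on filaments of actin that are pulled by myosin motors, each built of heavy and light chains. In striated muscle, troponin and tropomyosin sit on the actin filament and make the pull depend on calcium, while titin, nebulin, desmin and alpha-actinin hold the sarcomere together. In smooth muscle and in nonmuscle cells the switch lies on the myosin itself, whose light chain is phosphorylated by myosin light chain kinase. Neurons and their progenitors use the nonmuscle forms for shape, migration and growth cones. In an embryonic brain, smooth muscle proteins are best known from cells on the vessel wall, whereas striated muscle belongs to the head muscles outside the brain and to the heart.

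Most of the reads on these genes fell on the nonmuscle and shared genes. These 7 genes took 172743 of the 179702 reads on all 37 genes in the 6 libraries, or 96.1%, the smooth muscle genes took 2.08% and the striated muscle genes 1.80%. Levels of different genes were compared per kilobase of annotated exon. On that scale Myh10, the heavy chain of nonmuscle myosin IIB, was the highest with 1492 normalized counts per kilobase, at the 97.0th percentile of all recovered genes of known length. It was followed by Tpm4 with 1252.5, Tpm3 with 721, Tpm1 with 467 and Myh9, the heavy chain of nonmuscle myosin IIA, with 194. Among the smooth muscle genes, the regulatory light chain gene Myl9 (134 per kilobase) and the kinase gene Mylk (36.1) stood above the defining smooth muscle genes Tagln (14.7), Acta2 (6.25) and Myh11 (1.38). The striated muscle genes reached at most 27.0 normalized counts per kilobase, at Actn2, and went down to 0.041 at Tnni1. Titin, for all its length, had only 0.273 normalized counts per kilobase. The transcripts of the contractile genes in these midbrains thus came mainly from the nonmuscle and shared genes, by both read share and length-scaled level. Counts per gene do not tell muscle from nonmuscle products of the shared genes.

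**Figure D1:**
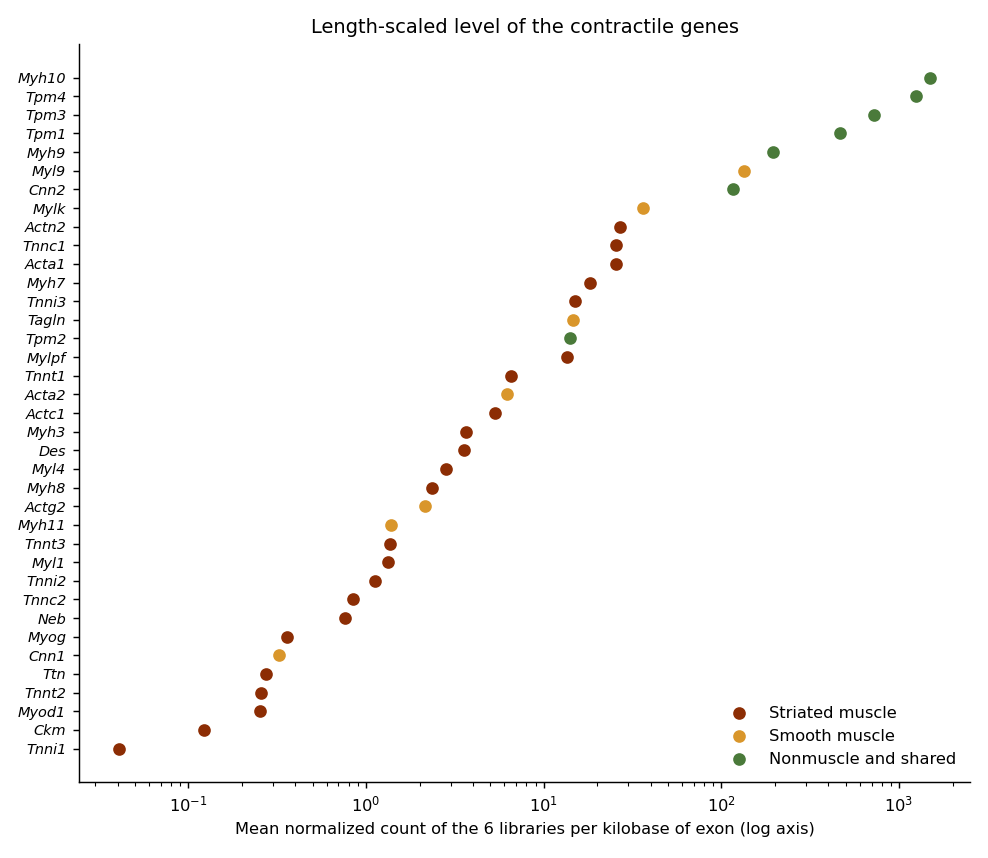
Mean normalized count of the 6 libraries per kilobase of annotated exon for each of the 37 genes (log axis), coloured by type. The nonmuscle and shared genes fill the upper end together with Myl9, except for Tpm2 at 13.97 per kilobase, and the striated muscle genes lie at or below 27.0.

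To find out whether the contractile genes differed between Lmx1b cKO and control midbrains, limma was run on the recovered counts of all genes whose normalized count averaged 10 or more. Of the 37 genes, 25 passed this minimum: 13 of 23 striated, 5 of 7 smooth and all 7 nonmuscle and shared genes. Only 1 of the 25, Tpm2, had an unadjusted p-value under 0.05, as did 2.78% of all 16989 tested genes. Tpm2 was higher in the cKO, where 1.16% of all tested genes passed, and 0 of 25 were lower, where 1.62% of all tested genes were. After Benjamini-Hochberg adjustment over all genes in limma, 0 of the 25 and 0% of all tested genes passed, with an adjusted p-value of 0.9999 for each of the 25. The median log2 fold change was 0.11 for the striated, 0.02 for the smooth and 0.01 for the nonmuscle and shared genes that passed the minimum, against 0.0008 for all tested genes. The smooth muscle median turned to -0.33 without cKO c and was 0.35 without cKO b, and the striated median was 0.02 without cKO a and 0.25 without control a. The striated genes included 10 above 0 and 3 below 0, none past the test. The precision differed widely between types: log2 fold changes carried standard errors of 0.26 to 0.81 for striated genes, 0.14 to 0.65 for smooth muscle genes, and 0.04 to 0.37 for the nonmuscle and shared genes. The 95% interval of Myh8, the striated gene with the standard error of 0.81, ran from -2.31 to 1.23, so that a doubling in the cKO lay within it. For Myh10 the interval ran from -0.10 to 0.08.

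**Figure D2:**
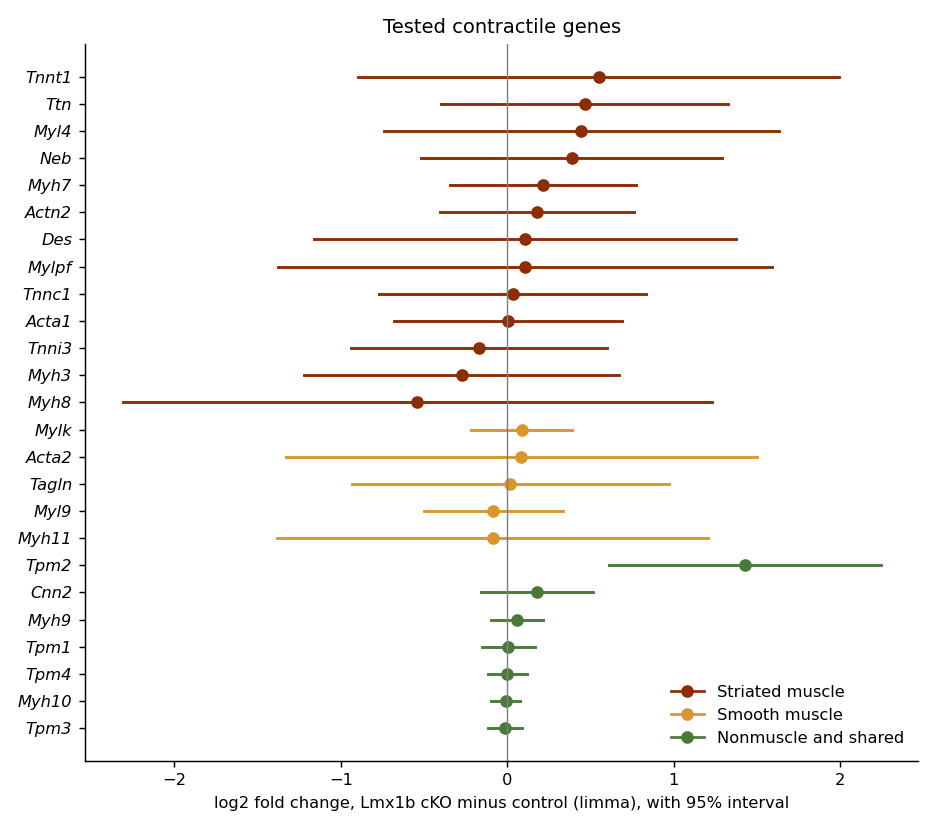
The log2 fold change of the 25 tested contractile genes, Lmx1b cKO minus control, with the 95% interval from limma as a bar. The interval of Tpm2, from 0.61 to 2.24, is the only one among the 25 that does not reach 0.

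Tpm2 encodes beta-tropomyosin, a form abundant in slow skeletal and smooth muscle that nonmuscle cells make as well. It lies at chr4:43514711-43523765 (GRCm38) on the minus strand, and its exons overlap no other annotated gene. The normalized counts of Tpm2 were 81.5, 44.4 and 53.0 in cKO a, b and c and 27.4, 20.2 and 17.3 in control a, b and c. Every cKO library was above every control library, and the lowest cKO library was 1.62 times the highest control library. Groups without overlap were seen for 7.6% of all tested genes and for 1 of the 25 contractile genes. These values came from few reads, 42 to 87 in the cKO and 16 to 31 in the control libraries. The exact Poisson 95% interval, which covers counting error only, was 32.0 to 60.0 normalized counts for cKO b and 18.6 to 38.9 for control a, so the nearest libraries of the groups overlapped in counting error. The group means were 59.6 ± 19.4 (SD, n = 3) in the cKO and 21.6 ± 5.23 (SD, n = 3) in the control, a 2.76-fold difference. The log2 fold change was 1.43 ± 0.37 (SE) with an unadjusted p-value of 0.00263 in limma, which the adjustment did not keep. The two-sided exact permutation test gave 0.1, the smallest value that 3 against 3 libraries can give. Leaving out 1 library at a time gave log2 fold changes of 1.16 to 1.62 and unadjusted limma p-values of 0.0017 to 0.0132.

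Markers of bone and mesenchyme differed between the same libraries. The summed normalized count of 12 such markers was 2584, 989 and 14728 in cKO a, b and c and 948 to 1096 in the control libraries. Tpm2 itself was at 81.5, 44.4 and 53.0 normalized counts in cKO a, b and c, so it was highest in cKO a and the marker sum in cKO c. Without cKO a and cKO c, a choice made after seeing these sums, the log2 fold change of Tpm2 was 1.03. This fit leaves 1 cKO library, whose spread cannot be measured, so no test is read from it. Of 7 red blood cell genes, Hba-a1 and Hbb-bs were higher in the cKO at an unadjusted limma p-value under 0.05, where 1.16% of all tested genes were higher, and the median log2 fold change of the 7 was 0.30, while their summed normalized counts of 13419 to 17409 in the cKO and 12011 to 16502 in the control libraries overlapped. Of 6 meninges markers, 4 were tested and none passed, with a median log2 fold change of 0.21. Foxd1, which was tested, and Slc6a13, which was below the minimum, had every cKO library above every control library. Groups without overlap, in either direction, were seen for 7.6% of all tested genes. The normalized counts of Foxd1 were 70.4 to 94.0 in cKO and 68.0 to 70.1 in control libraries, so the groups nearly touched. Its log2 fold change was 0.187 ± 0.225 (SE). Those of Slc6a13 were 8.43 to 11.6 against 2.16 to 5.76. For the other meninges markers, Foxc1, Aldh1a2, Ptgds and Crabp2, the groups overlapped. The part of bone and mesenchyme cells, blood or meninges in the Tpm2 level was not tested. In pooled tissue, more cells of a type and more RNA per cell cannot be told apart.

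The 2 groups overlapped for each of the other tropomyosins. Tpm3, a form of slow muscle fibres and of nonmuscle cells, was at 4494, 4395 and 4216 normalized counts in the cKO and at 4417, 4475 and 4338 in the controls. Tpm1, the alpha form of heart and fast muscle with many nonmuscle products, was at 3348, 2870 and 2877 in the cKO and at 2862, 3258 and 2944 in the control libraries. Neither gene separated the groups, with log2 fold changes of -0.01 ± 0.05 (SE) for Tpm3 and 0.01 ± 0.07 (SE) for Tpm1. Tpm4, a mainly nonmuscle form, ranged from 2682 to 2869 over the 6 libraries, with a log2 fold change of -0.001 ± 0.05 (SE). Within the summed tropomyosin count of a library, Tpm2 made up 0.767%, 0.442% and 0.531% in the cKO and 0.27%, 0.193% and 0.173% in the control libraries, so the sum over the family, 9981 to 10627, hardly depended on it. Of the 50-base words of the annotated Tpm3 transcripts, 23.2% also occur in transcripts of other genes, chiefly copies such as Tpm3-rs7, and 11.7% of those of Tpm4, so reads of both genes can be lost to other loci. For Tpm1 and Tpm2 this share was 0.

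**Figure D3:**
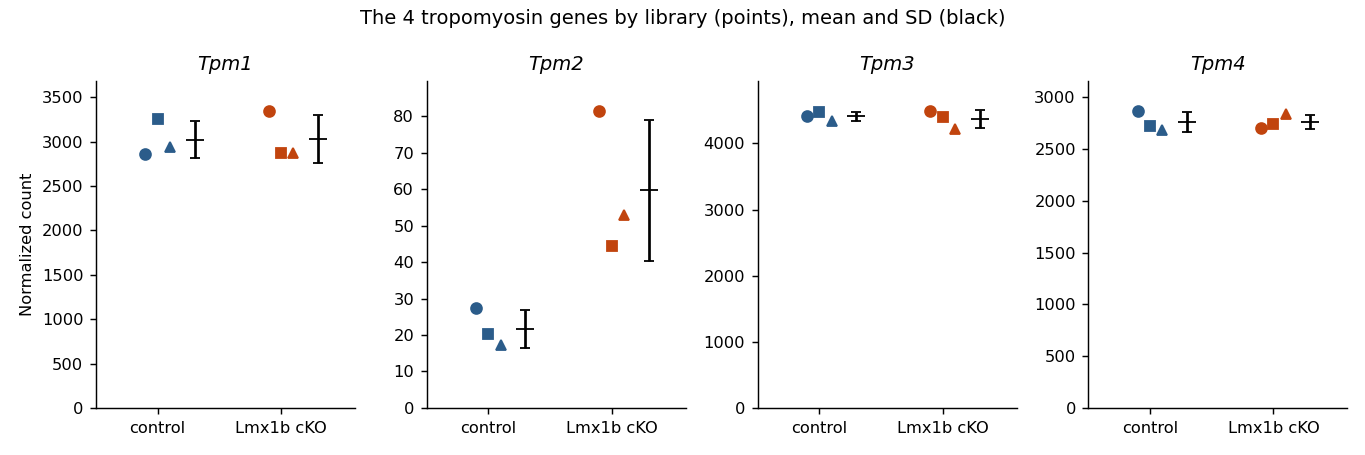
Normalized counts of the 4 tropomyosin genes in each control (blue) and Lmx1b cKO (orange) library, with circles, squares and triangles for libraries a, b and c and the mean and SD in black, each axis from 0. For Tpm2 the cKO libraries lie between 44.4 and 81.5 and the control libraries between 17.3 and 27.4, whereas the groups overlap for the other tropomyosins.

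As the tested member that stood apart, Tpm2 is shown with the sequence around its transcription start, 250 bases before to 50 bases after the start as annotated by RefSeq (GRCm38.p6), read 5′ to 3′ on its own strand. The window, chr4:43523505-43523804 on the minus strand, holds the E-box CAGCTG once, set in capitals, and no CArG box, the motif of serum response factor.
Tpm2: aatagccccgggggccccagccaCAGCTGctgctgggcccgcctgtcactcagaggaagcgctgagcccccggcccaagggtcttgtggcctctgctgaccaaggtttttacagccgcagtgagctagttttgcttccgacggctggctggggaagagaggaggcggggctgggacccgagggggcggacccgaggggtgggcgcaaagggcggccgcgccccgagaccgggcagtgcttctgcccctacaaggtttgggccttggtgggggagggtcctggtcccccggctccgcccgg
Of the 37 genes, 30 had such a window, with 34 windows between them. CAGCTG was searched in its 1 orientation since it reads the same on both strands. It was found in 13 of the 34 windows, those of 12 genes, against 16.3% of 32851 windows of all genes. CAGCTG is also contained in the wider E-box CANNTG, which 32 of the 34 windows, those of 28 genes, and 72.3% of all windows held. The CArG box, searched on both strands, was found in 4 of the 34 windows, those of 4 genes, against 1.63% of all windows. These were 1 nonmuscle gene (Cnn2), 1 smooth muscle gene (Myl9) and the sarcomeric actin genes Acta1 and Actc1, whose windows are printed here with the CArG box and CAGCTG in capitals to set the motif beside the levels that follow. They are chr8:123894726-123895025 (minus) for Acta1, chr2:114052826-114053125 (minus) for Actc1, chr2:156775214-156775513 (plus) for Myl9 and chr10:79988350-79988649 (plus) for Cnn2.
Acta1: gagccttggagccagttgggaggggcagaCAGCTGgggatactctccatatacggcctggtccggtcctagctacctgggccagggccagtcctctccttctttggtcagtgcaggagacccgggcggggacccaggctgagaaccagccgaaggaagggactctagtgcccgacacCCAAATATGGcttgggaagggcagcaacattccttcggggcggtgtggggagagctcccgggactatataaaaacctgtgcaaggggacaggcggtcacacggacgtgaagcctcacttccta
Actc1: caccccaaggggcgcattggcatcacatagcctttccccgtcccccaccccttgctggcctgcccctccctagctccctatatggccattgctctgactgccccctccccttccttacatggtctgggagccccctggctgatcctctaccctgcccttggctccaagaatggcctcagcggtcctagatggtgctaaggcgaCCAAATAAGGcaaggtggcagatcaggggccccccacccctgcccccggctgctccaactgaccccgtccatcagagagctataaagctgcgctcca
Myl9: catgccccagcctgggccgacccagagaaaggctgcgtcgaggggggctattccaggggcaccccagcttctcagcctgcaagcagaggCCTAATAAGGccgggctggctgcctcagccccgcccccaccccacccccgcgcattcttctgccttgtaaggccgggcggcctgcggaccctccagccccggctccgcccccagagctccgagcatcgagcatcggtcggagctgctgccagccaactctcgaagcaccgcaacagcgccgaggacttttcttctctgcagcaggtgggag
Cnn2: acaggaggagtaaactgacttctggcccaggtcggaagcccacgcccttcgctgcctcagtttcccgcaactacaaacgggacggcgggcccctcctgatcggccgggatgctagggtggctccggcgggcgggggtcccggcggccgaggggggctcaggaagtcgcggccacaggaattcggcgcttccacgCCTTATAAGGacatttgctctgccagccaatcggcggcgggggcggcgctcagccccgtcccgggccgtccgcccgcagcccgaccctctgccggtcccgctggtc
The 4 genes with the box differed widely in level, from 5.33 normalized counts per kilobase for Actc1 and 25.4 for Acta1 to 116 for Cnn2 and 134 for Myl9. A match of letters is no measure of binding, and no binding was measured.

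The nonmuscle myosins had many reads and varied little between libraries. Myh10 had 15674, 15377 and 15581 normalized counts in the cKO and 15197, 16353 and 15418 in the controls. The highest library was only 1.08 times the lowest, and the log2 fold change was -0.01 ± 0.04 (SE). Myh9 ranged from 2263 to 2740 with both extremes in control libraries and had a log2 fold change of 0.06 ± 0.07 (SE). Cnn2, the gene of the nonmuscle calponin, was at 246 to 294 in control and 248 to 363 in cKO libraries, with a log2 fold change of 0.18 ± 0.15 (SE). None of the 17 other tested genes of the nonmuscle contractile machinery, which included Actg1 (12562 to 14161 normalized counts) and the light chains Myl6 and Myl12a, passed an unadjusted limma p-value of 0.05, and their median log2 fold change was 0.02. One of the 17, Actn1, a nonmuscle alpha-actinin named after its values were seen, had groups without overlap, as did 7.6% of all tested genes, with 746 to 799 normalized counts in the cKO and 815 to 860 in the control libraries. For Actn1 the log2 fold change was -0.10 ± 0.08 (SE), with an unadjusted p-value of 0.204 in limma.

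The sarcomeric actins were low. Acta1, the actin of skeletal muscle, had 44.0, 38.0 and 33.6 normalized counts in the cKO and 30.1, 42.3 and 46.4 in the control libraries. The groups overlapped and the log2 fold change was 0.003 ± 0.31 (SE). Actc1, the actin of the heart and of embryonic muscle, had 16, 6 and 15 reads in the cKO and 4, 1 and 9 reads in the control libraries. Its mean normalized count of 8.63 was below the minimum for the test. When no minimum was applied, Actc1 had a log2 fold change of 1.66 ± 0.74 (SE) with an unadjusted p-value of 0.0416 and an adjusted p-value of 0.981 in limma, and its groups overlapped.

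Among the sarcomeric myosins, Myh7, the slow heavy chain, had the most reads. It was at 230, 165 and 114 normalized counts in cKO a, b and c and at 162, 111 and 162 in the control libraries. The groups overlapped, the highest and the second lowest library both being cKO libraries, with a log2 fold change of 0.21 ± 0.26 (SE). The exons of Myh7 share bases with 3 genes of the opposite strand, 484 of them with Mhrt, and 15.6% of its words occur elsewhere, chiefly in Myh6, so its reads may include some of other transcripts. Myh8, the perinatal heavy chain, was at 20.6, 7.40 and 24.9 normalized counts in the cKO and at 91.1, 11.5 and 9.72 in the control libraries. The 103 reads of control a, with an exact Poisson 95% interval of 74.4 to 110.5 normalized counts, put this library at 5.67 times the median and alone above the rest. Without it the log2 fold change of Myh8 turned from -0.54 to 0.55, neither past the test in limma. Myh3, the embryonic heavy chain, was likewise highest in control a, at 38.9 normalized counts against 16.3 to 20.6 in the other libraries. Without control a, its log2 fold change turned from -0.27 to 0.12. Of the light chains, Myl4, of atrial and embryonic muscle, ranged from 5.76 to 20.6 normalized counts and Mylpf, of fast skeletal muscle, from 4.80 to 26.5, both with overlapping groups. Mylpf was also highest in control a, with 30 reads, closely followed by cKO b with 25. Myl1, a fast skeletal essential light chain, had 1 to 7 reads.

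**Figure D4:**
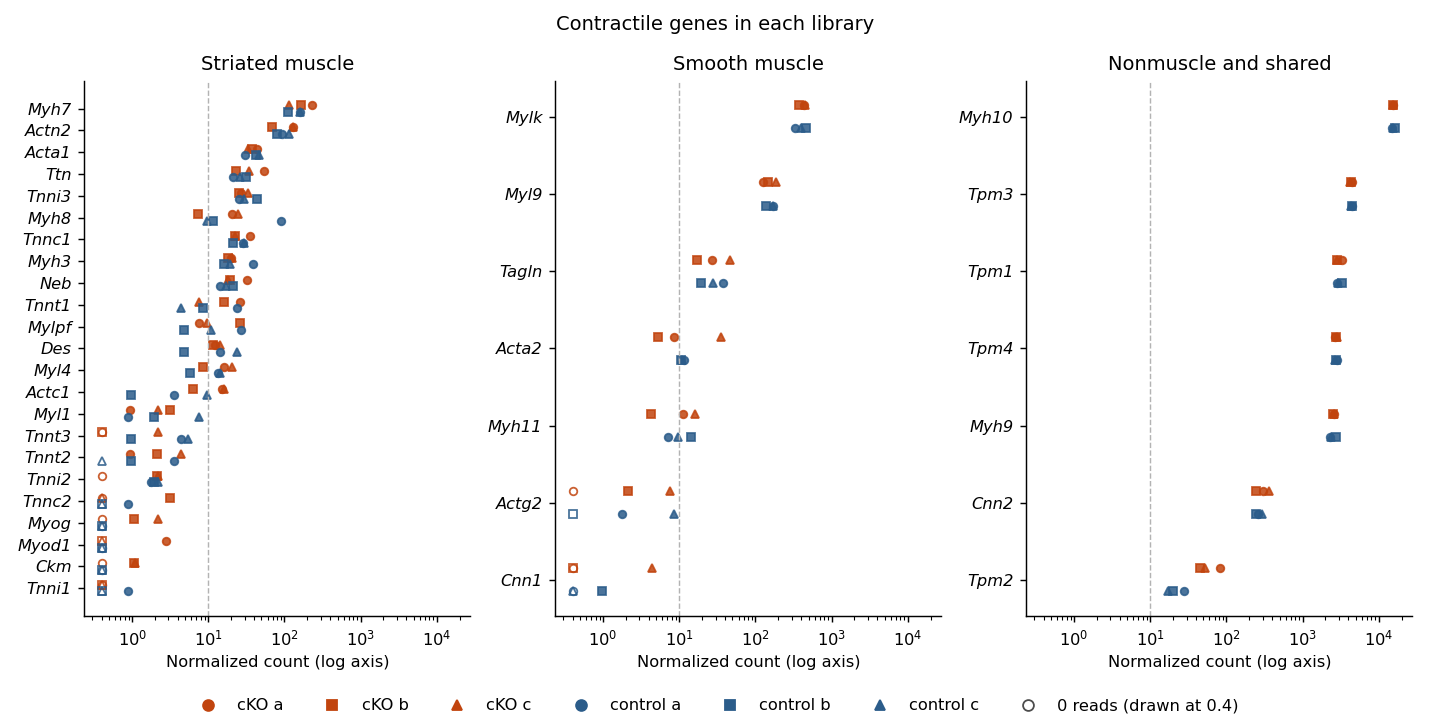
Normalized counts of all 37 genes in each library (log axis) by type, with orange for Lmx1b cKO and blue for control libraries, open symbols for 0 reads and a dashed line at the minimum mean of 10. The cKO and control symbols overlap in nearly every row, Tpm2 stands apart between groups, and control a stands apart for Myh8.

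The troponins, which carry the calcium switch of striated muscle, were low, and 3 of them passed the minimum for the test. Tnni3, the cardiac inhibitory subunit, ranged from 25.4 to 44.2 normalized counts, though 86 of its exon bases are shared with Dnaaf3 on the same strand. Tnnc1, the calcium-binding subunit of slow and cardiac muscle, ranged from 21.1 to 35.6. Tnnt1, the slow form of the tropomyosin-binding subunit, ranged from 4.32 to 26.2. All these ranges overlapped between groups, with log2 fold changes of -0.17 ± 0.35 (SE), 0.03 ± 0.37 (SE) and 0.55 ± 0.66 (SE). The other forms, fast, slow and cardiac, were near the floor: Tnnt2 had 12 reads in all 6 libraries together, Tnnt3 had 13, Tnni2 had 10, Tnnc2 had 4 and Tnni1 had 1. Tnnt3, with 0, 0 and 2 reads in the cKO and 5, 1 and 5 in the control libraries, had an unadjusted p-value of 0.0402 and an adjusted p-value of 0.981 in limma when no minimum was applied. Its reads were too few for a fold to be read from them.

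Of the genes that build the sarcomere, Actn2, the alpha-actinin of the Z-disc, was at 128, 69.7 and 131 normalized counts in the cKO and at 92.0, 80.7 and 113 in the control libraries. The cKO libraries enclosed the control range, with a log2 fold change of 0.18 ± 0.27 (SE). Ttn, the giant spring of the sarcomere, was at 54.3 normalized counts in cKO a and 21.2 to 34.6 in the other libraries, and Neb, the ruler of the thin filament, at 31.9 in cKO a and 14.2 to 21.1 elsewhere. Both were highest in the same library, cKO a, as were Myh7, Tnnt1 and Tnnc1, so that 5 of 13 tested striated genes had their highest level there, where 18.8% of all tested genes did. Their log2 fold changes were 0.47 ± 0.39 (SE) for Ttn and 0.39 ± 0.41 (SE) for Neb. Des, the intermediate filament of muscle, ranged from 4.80 to 23.8, with both extremes in control libraries. Ckm, the creatine kinase of muscle, had 2 reads in all, Myog 3 and Myod1 3, the last all in cKO a. Myod1 and Myog are the regulators that define skeletal muscle cells, and together with Ckm, Tnni1, Tnni2 and Tnnc2 they had at most 3 reads in every library, so no fold is given for these 6 genes. As a whole, the 23 striated genes summed to 673, 469 and 515 normalized counts in the cKO and 597, 410 and 530 in the control libraries. The ratio of the group means was 1.08 and the two-sided exact permutation test gave 0.7. Leaving out cKO a or control b brought the ratio to 0.96 or 0.98.

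The smooth muscle genes with the most reads were not the ones that define smooth muscle. Mylk had 433, 371 and 446 normalized counts in the cKO and 329, 462 and 400 in the control libraries, and Myl9 had 125, 146 and 187 in the cKO and 171, 136 and 170 in the control libraries. Both genes are also active in nonmuscle cells, and their groups overlapped, with log2 fold changes of 0.09 ± 0.14 (SE) and -0.08 ± 0.19 (SE). Tagln, the gene of transgelin, an actin-bundling protein of smooth muscle, had 27.2, 16.9 and 46.5 in the cKO and 37.2, 19.2 and 28.1 in the control libraries. Of its exon bases, 1241 are shared with Gm48529 on the opposite strand. Acta2, the actin of vascular smooth muscle, was at 35.7 normalized counts in cKO c, with an exact Poisson 95% interval of 24.6 to 50.2, and at 5.28 to 11.5 in the other 5 libraries. Myh11, the smooth muscle heavy chain and the most specific marker of the list, ranged from 4.23 to 16.2, and Cnn1, smooth muscle calponin, had 4 of its 5 reads in cKO c. Actg2, the actin of visceral smooth muscle, had 0 to 8 reads.

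Of the 7 smooth muscle genes, 5 were highest in cKO c (Acta2, Tagln, Myh11, Myl9 and Cnn1). So were 4 of the 5 tested, where 16.3% of all tested genes were highest in this library. Acta2 and Myh11 reached the minimum mean of 10 only through cKO c, so the count of 4 is in part set by this minimum. The sum of the 7 genes was 604, 545 and 744 normalized counts in the cKO and 557, 644 and 626 in the control libraries, with a ratio of the group means of 1.04 and a two-sided exact permutation p of 0.9. Without cKO c the ratio was 0.944. cKO c was also the library in which the sum of the 12 bone and mesenchyme markers was highest, at 14728 normalized counts against 948 to 2584 in the other libraries. All 11 of the 11 tested markers had their highest level in it. Of these, Ibsp had 151 of its 153 reads in cKO c and passed the minimum only through this library. The highest of the 12 markers, Col1a1, a collagen of bone and connective tissue, had 6097 normalized counts in cKO c, 532 in cKO a and 10.6 to 14.8 in the other libraries. In the bone and mesenchyme list, 1 of 11 tested genes was higher at an unadjusted p-value under 0.05 in limma, against 1.16% of all tested genes. This was Col3a1, with 626, 240 and 2320 in the cKO and 172 to 215 in the control libraries. The part of these cells in the smooth muscle levels of cKO c was not tested. The 9 pericyte markers, of the cells that share the vessel wall with smooth muscle, summed to 9591 to 10017 normalized counts and the endothelial markers to 5544 to 6136 over the 6 libraries. In neither list did a gene pass an unadjusted p-value of 0.05 in limma, although 3 of the 9 pericyte markers, against 7.6% of all tested genes, had groups without overlap: Anpep and Vtn were higher in the cKO libraries and Notch3 lower, with log2 fold changes of 0.55 ± 0.29 (SE), 0.15 ± 0.09 (SE) and -0.16 ± 0.08 (SE). Rgs5, the highest of the pericyte markers, had 2988 to 3514 normalized counts in the same libraries in which Acta2 had 5.28 to 35.7.

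**Figure D5:**
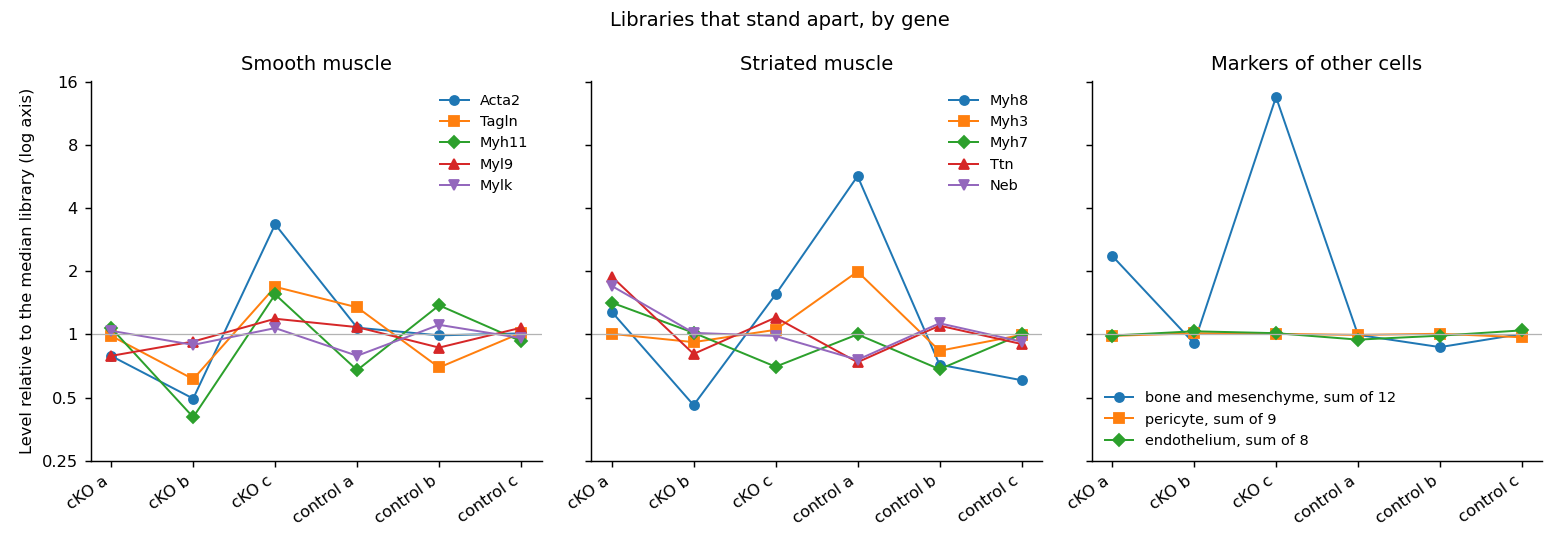
Level in each library relative to the median of the 6 libraries (log axis) for 5 smooth muscle genes, 5 striated muscle genes and the sums of 3 marker lists, with 1 line per gene or list. Acta2 and the bone and mesenchyme markers peak in cKO c, Myh8 (5.67 times the median) and Myh3 in control a, and Ttn and Neb in cKO a, whereas the pericyte and endothelial sums are flat.

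Further genes of the same pathways were read from lists outside the 37 genes. Of 44 further striated muscle genes in the table, 19 were tested and 2 passed an unadjusted limma p-value of 0.05, with 1 in each direction, as did 2.78% of all tested genes in either direction. Pvalb, the calcium buffer parvalbumin of fast muscle, which certain neurons also make, had 25.3, 19.0 and 16.2 normalized counts in the cKO and 64.6, 59.6 and 59.4 in the control libraries. All cKO libraries were lower, with a log2 fold change of -1.59 ± 0.32 (SE), an unadjusted p-value of 0.000398 and an adjusted p-value of 0.9999. Of the 14 further smooth muscle genes, 9 were tested and none had an unadjusted p-value under 0.05, with a median log2 fold change of -0.05. Cald1, the gene of caldesmon and the highest of them, had 1457 to 1863 normalized counts. Myocd, the coactivator that turns on the smooth muscle program, had 1 read in the 6 libraries together.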

How the data were processed

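The submitters' processing notes list TopHat 1.0.14, Bowtie2 2.1.0, HTSeq 0.6.1p1 and DESeq 1.10.1 with the genome build GRCm38.p4, while the methods of the study name DESeq2. Whether counting used the strand is not given in the sources used here. The authors deposited normalized read counts (signal), each count divided by a size factor per library, as means over each group and over all libraries. The ratio, log2 ratio, p-value and adjusted p-value columns that the authors deposited hold their own comparison and were not used. The 3 lines that name no gene held 31.8% of the mean counts and were left out.

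Each mean is a sum of whole reads times 1 fixed step per library, so the steps were read from genes with few reads and the whole numbers that give each printed mean were searched up to 50000 reads. Both groups had exactly 1 solution for 26664 of 26852 genes (99.3%), within 0.75 of the last of 15 printed digits, and size factors recomputed from these reads differed by at most 0.0526%. Genes above the search limit, among them Actb, were left out. Because the table holds no counts per library, limma 3.58.1 with voom weights in R 4.3.3 was used on the recovered reads, with the genotype as the only term, a minimum of 10 for the normalized count averaged over the libraries and Benjamini-Hochberg adjustment over all 16989 genes tested. Both steps were tested on simulated data. Summed counts were compared by a two-sided exact permutation test, which cannot go below 0.1 with 3 libraries per group. The p-values measure the spread between these libraries, each of pooled embryos.

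The 37 genes, their types and all lists were chosen with earlier results of these data known. Values per library are given for genes with an unadjusted p-value under 0.05, the 3 genes of each type with the highest mean normalized count and genes with 1 library over 5 times the median and at least 30 reads. Genes outside the set are named where they passed or were the highest of their list. The values of 1 such gene are not reported here. Positions and exon lengths (the union of annotated exons) are from GENCODE M21 on GRCm38, and sequences from RefSeq. Alternatives were other minimum means, other scalings, limma-trend on log2(normalized count + 1) and log2(normalized count + 10), and each library left out in turn. Further steps ran in Python 3.11.15 (matplotlib 3.10.9, numba 0.67.0, pandas 2.3.3, scipy 1.17.1, numpy 2.4.6).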

Additional observations from a re-analysis of the deposited data

How the results depend on the processing

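The log2 fold change of Tpm2 stayed above 0, and its unadjusted limma p-value under 0.05, wherever a planned fit tested it, from 1.12 with a pseudocount of 10 to 1.62 without control a. With a minimum mean of 100 Tpm2 was not tested, and 0 genes of the set were higher. With cKO b as the only cKO library, chosen after seeing the data, the log2 fold change of Tpm2 was 1.03. Without a minimum 2 genes were higher (Tpm2 and Actc1) and 1 was lower (Tnnt3), all of few reads. No gene of the set passed the adjustment under any setting. Of 336 fits of single genes under an alternative, 303 kept sign and side of the threshold, and 7 of 25 genes kept 1 sign throughout.

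Leaving out 1 library gave ratios of the summed counts of 0.960 to 1.175 for the striated and 0.944 to 1.106 for the smooth muscle genes, median log2 fold changes of 0.023 to 0.252 for the striated and -0.328 to 0.350 for the smooth muscle genes, and of -0.010 to 0.063 for the nonmuscle and shared genes, the highest without control b. It turned the sign of log2 fold changes that had not passed the test, with ranges of -0.195 to 0.120 for Acta1, -0.535 to 0.123 for Myh3, -0.054 to 0.461 for Myh7, -1.076 to 0.548 for Myh8, -0.491 to 0.753 for Mylpf, -0.347 to 0.063 for Tnni3, -0.199 to 0.153 for Tnnc1, -0.499 to 0.554 for Des, -0.659 to 0.596 for Acta2, -0.455 to 0.416 for Myh11, -0.235 to 0.063 for Myl9, -0.053 to 0.208 for Mylk, -0.328 to 0.350 for Tagln, -0.070 to 0.063 for Tpm1, -0.035 to 0.011 for Tpm3, -0.021 to 0.028 for Tpm4, -0.003 to 0.140 for Myh9 and -0.032 to 0.023 for Myh10. With limma-trend the log2 fold change of Acta1 was -0.024 (pseudocount 1) and -0.022 (pseudocount 10), that of Des was -0.022 (pseudocount 10) and that of Tpm4 was 0.001 (both pseudocounts). The cause was not tested.

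No paired analysis was possible because the recovered libraries carry no replicate number and cannot be tied to single samples of either group. The header of the deposited table numbers the samples of both groups 1 to 3, so same-numbered samples may have been a set, which the fit does not take into account. Few reads and the spread between libraries limit the striated and smooth muscle genes most: 12 of the 37 genes did not reach the minimum mean of 10, and log2 fold changes had a median standard error of 0.41 for the striated genes and 0.43 for the smooth muscle genes tested, against 0.07 for the nonmuscle and shared genes.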
